A study of Mus musculus with 2 samples.

Results

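Translation initiation and elongation factors are the soluble proteins that bring the ribosome to an mRNA, select the start codon and carry the ribosome along the reading frame. They were taken by gene symbol, as all symbols starting with *Eif1* to *Eif6* or *Eef* without *Eif2s3y* and without pseudogenes, which gave 61 of the 18159 symbols measured. The values are mRNA levels in the jejunal tunica muscularis, which holds the circular and longitudinal muscle layers of that segment of the small intestine, of mice on a C57BL/6 background at P15, with 1 library from *Dnmt1*-WT mice and 1 from *Dnmt1*-KO mice. In the *Dnmt1*-KO mice a floxed stretch of *Dnmt1*, which encodes the maintenance DNA methyltransferase, is excised by a Cre recombinase driven with eGFP from the *Myh11* promoter, so that only smooth muscle cells (SMC) are expected to lose a working gene and the other cells of the tissue keep it. Both samples carry the same strain entry, which holds the transgene Tg(Myh11-cre,-EGFP)2Mik and the Dnmt1lox/lox alleles, and the free-text description of both names the knockout, so the genotype was taken from the sample titles and the genotype field. By the study's methods the *Dnmt1*-WT mice carry the Cre and eGFP transgene too, so both groups share it. The RNA of each genotype is described there as coming from several mice of both sexes, without saying how it was combined. The study compared the libraries to learn how the transcriptome of the muscle wall differs when SMC lack DNMT1.

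Initiation proceeds in ordered steps. The factor eIF2 delivers the initiator tRNA, eIF1, eIF1A and eIF5 govern start codon selection, and the many-subunit eIF3 holds the small ribosomal subunit. The eIF4 factors bind the cap of the mRNA and unwind it, and eIF5B joins the ribosomal subunits. During elongation eEF1A brings each aminoacyl-tRNA and eEF2 moves the ribosome by a codon. Kinases that phosphorylate eIF2 alpha, and the 4E-BP proteins that bind eIF4E, limit initiation in stressed or starved cells. These controls act largely on the proteins, which were not measured here.

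The measurements are FPKM, fragment counts divided by transcript length and by the number of fragments mapped in the library, so they are levels per length. They remain relative to the make-up of each library, and the sum over all genes was 1.07 times as high in *Dnmt1*-KO. The number of reads per gene is not given with the values. The study gives mapped reads for each library, and no counting interval was made from them. With 1 library per genotype there is no replicate check on any difference below, and no test was made. Higher and lower therefore describe these libraries only. A gene was counted as measured well enough to compare, or tested, when it was above 0 in both libraries with a mean of 1 FPKM or more, which 13396 genes and 60 of the 61 factors met. The remaining factor, *Eif4ebp3*, had 0.41 FPKM in *Dnmt1*-WT and 0.16 FPKM in *Dnmt1*-KO.

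*Dnmt1* itself had 11.58 FPKM in *Dnmt1*-WT and 7.58 FPKM in *Dnmt1*-KO, over the whole gene and not the excised stretch. All 6 smooth muscle markers were lower in *Dnmt1*-KO, their sum going from 12614.53 to 8819.55 FPKM, and theirs was the highest sum of the marker lists in both libraries. *Acta2* had 5408.13 and 4016.24 FPKM and *Myh11*, whose promoter drives the Cre, 2685.29 and 1255.51 FPKM. The libraries also differed in markers of other cells. All 6 leukocyte markers were higher in *Dnmt1*-KO (sum 26.08 and 85.48 FPKM), as were the 5 macrophage markers listed of 6 (104.14 and 385.80), all 4 adipocyte markers (107.51 and 1127.51), all 3 Paneth cell markers (13.60 and 139.70), 4 of 6 epithelial markers (84.95 and 174.07) and all 4 markers of dividing cells (24.66 and 44.07). The 3 T cell markers were listed at 0 in *Dnmt1*-WT and summed to 1.21 FPKM in *Dnmt1*-KO, the 2 B cell markers listed of 4 summed to 0.55 and 1.20, and the 4 pancreatic acinar markers summed to 21.18 FPKM in *Dnmt1*-WT and were listed at 0 in *Dnmt1*-KO. Of the 4 enteric neuron markers 3 were higher (sum 296.11 and 351.23), and of the 4 skeletal muscle markers 2 were higher (sum 101.96 and 53.74). The part of these cells in the values of the translation factors was not tested. In such bulk values alone, fewer cells of a type and less RNA per cell cannot be told apart. By cell sorting at P15 the study reported more immune cells and fewer eGFP-bearing SMC in *Dnmt1*-KO. It also reported lower *Myh11* and *Srf* in the sorted SMC, by quantitative PCR.

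The translation factors differed little between the libraries. Of the 60 tested, 33 were higher in *Dnmt1*-KO, 26 were lower and 1 was equal, with a median log2 ratio of *Dnmt1*-KO to *Dnmt1*-WT of 0.02. The median over all 13396 genes was -0.02. Only *Eif6* was at least 1.5-fold higher, that is 1 of 60, where 15.1% of all genes were, and centring on GC content added *Eif1a*. *Eif4g2* and *Eif4a2* were at least 1.5-fold lower, that is 2 of 60, where 11.0% of all genes were. These lower calls depend on the processing, since 1 is left with upper quartiles set equal or centring on transcript length and 0 with centring on GC content. There were 3 with the FPKM sums set equal, which adds *Eif4e*, and 3 with no filter on low values, which adds *Eif4ebp3*. A smaller limit was a ratio of 0.8 or less for lower genes and its reciprocal or more for higher ones. At this limit 5 tested factors were higher and 7 lower, beside 25.3% and 24.9% of all genes. No tested factor reached a 2-fold difference in either direction. The ratios of 48 factors, or 80%, lay within the smaller limit, as did those of 49.8% of all genes and 56.9% of genes with a mean of 10 FPKM or more. The standard deviation of the log2 ratio was 0.28 among the factors and 0.79 among all genes. At a mean of 10 FPKM or more it was 0.29 among 54 factors and 0.64 among 6505 genes. Of those 6505 genes, 642 were at least 1.5-fold higher and 603 lower, beside 1 and 2 of the 54 factors. Most factors are well expressed, and the spread of log2 ratios is a description of genes within a pair of libraries, since genes are not replicates.

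**Figure D1:**
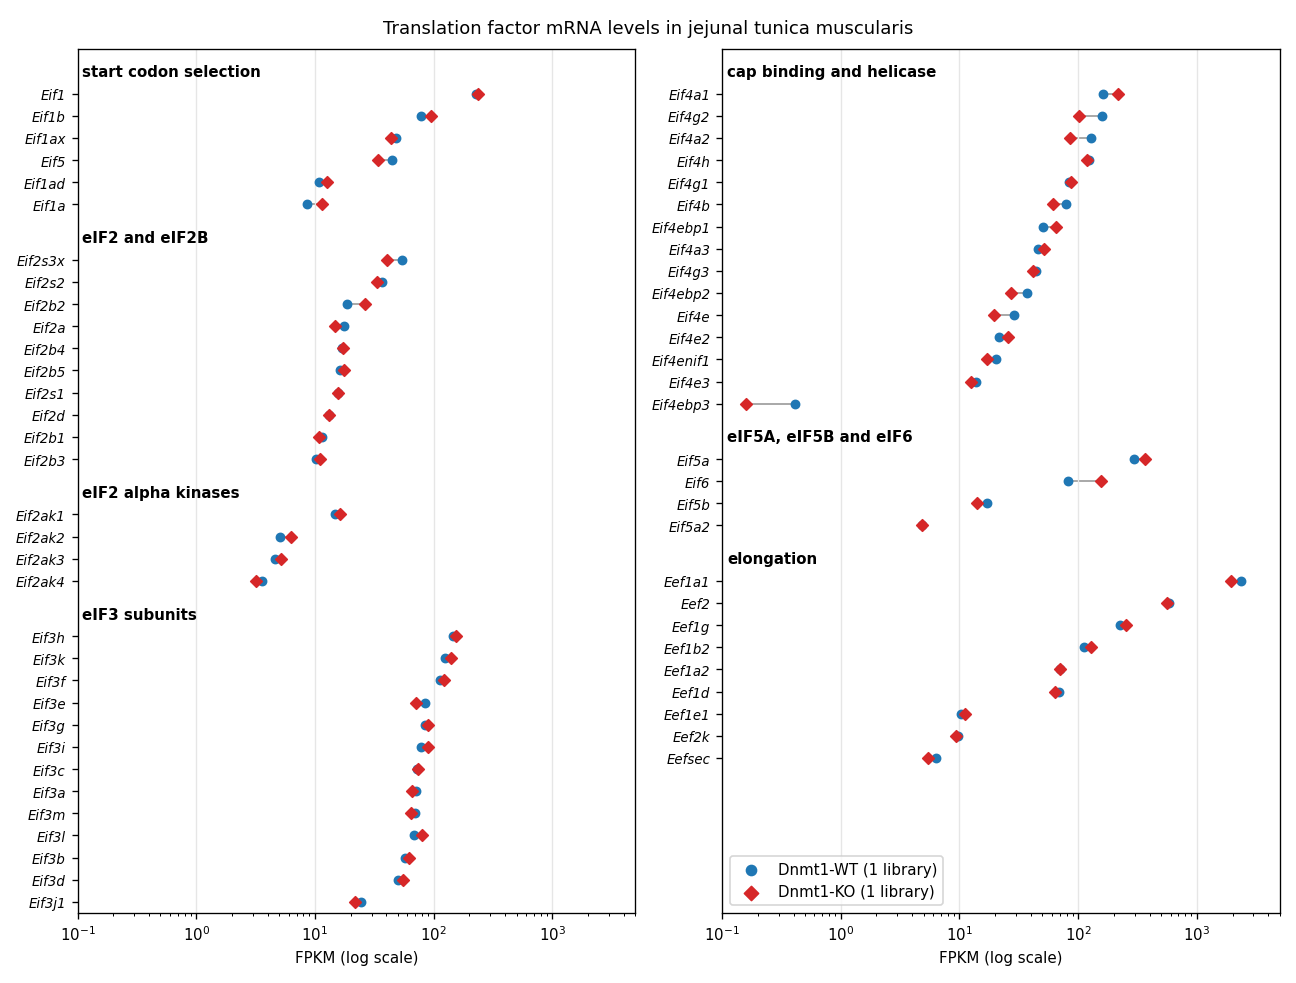
mRNA level of each translation factor, in FPKM on a log axis, in the *Dnmt1*-WT library (blue circles) and the *Dnmt1*-KO library (red diamonds), grouped by role and ordered within a role by the *Dnmt1*-WT level. The levels span from under 1 FPKM for *Eif4ebp3* to 2347.09 FPKM for *Eef1a1*, and for most factors the circle and the diamond nearly coincide.

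Elongation factors were by far the most abundant. The 9 genes of this group summed to 52.6% of the FPKM of all translation factors in *Dnmt1*-WT and 48.6% in *Dnmt1*-KO. *Eef1a1*, which encodes the major form of eEF1A, had 2347.09 FPKM in *Dnmt1*-WT and 1939.82 FPKM in *Dnmt1*-KO, a ratio of 0.826, and alone made up 35.9% and 30.9% of the sum over the factors. The sum over all factors went from 6531.29 to 6277.94 FPKM, a ratio of 0.961, and without *Eef1a1* from 4184.20 to 4338.12 FPKM, a ratio of 1.04. The factors were also a smaller share of the FPKM of all genes in *Dnmt1*-KO, and the direction without *Eef1a1* depends on the scaling. Its transcript shares 39.4% of its 50-base windows with 20 other annotated genes, so its FPKM depends on how reads that fit several places were shared out.

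*Eef2*, the translocation factor, had 588.05 FPKM in *Dnmt1*-WT and 565.74 FPKM in *Dnmt1*-KO. *Eef2k*, the kinase that inactivates eEF2, had 9.77 and 9.37 FPKM, so the level of the kinase gene relative to *Eef2* was 0.0166 in both libraries. *Eef1a2*, the eEF1A form known from adult muscle and neurons, had 70.02 and 70.94 FPKM. The genes of the eEF1B exchange complex, which recharges eEF1A with GTP, did not move in one direction, since *Eef1g* had 225.94 and 254.48 FPKM, *Eef1b2* 110.97 and 129.56 FPKM, and *Eef1d* 68.52 and 64.08 FPKM. *Eefsec*, the selenocysteine elongation factor, had 6.39 and 5.42 FPKM and *Eef1e1*, a scaffold protein of the tRNA synthetase complex, 10.29 and 11.14 FPKM. None of the 9 genes passed the smaller limit without rescaling, and their log2 ratios ran from -0.27 to 0.22. With the FPKM sums of the libraries set equal or with centring on length or GC content, *Eef1a1* (to -0.38), *Eefsec* (to -0.43), *Eef1b2* (to 0.35) and *Eef1e1* (to 0.33) passed it in at least 1 setting.

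The 13 genes of eIF3 differed little between the libraries. Their log2 ratios ran from -0.25 for *Eif3e* to 0.24 for *Eif3l*, with a median of 0.09 and a standard deviation of 0.16, and none passed the smaller limit without rescaling. The standard deviation was 0.07 after centring on the GC content of the longest transcript and 0.15 with the median GC content over all transcripts. *Eif3e* passed it with the FPKM sums set equal, at -0.35, and after centring on transcript length, at -0.42. *Eif3h* was the most abundant, with 146.51 FPKM in *Dnmt1*-WT and 153.19 FPKM in *Dnmt1*-KO, followed in both libraries by *Eif3k* (124.2 and 140.43) and *Eif3f* (113.21 and 121.66). *Eif3j1*, whose product binds the complex loosely, was the least abundant, with 24.34 and 21.57 FPKM. *Eif3a*, the scaffold of the complex, had 71.4 and 65.57 FPKM, and *Eif3b* and *Eif3c*, which join it in the core, had 56.88 and 62.32 FPKM and 73.03 and 73.86 FPKM. *Eif3e* had 85.37 and 71.75 FPKM and *Eif3m* 69.54 and 64.16 FPKM. On the higher side, *Eif3l* had 68.05 and 80.58 FPKM, *Eif3i* 78.02 and 88.87, *Eif3g* 84.42 and 89.58, and *Eif3d*, a subunit that can bind the cap of some mRNAs, 49.87 and 54.93. In *Dnmt1*-KO 9 of the 13 genes were higher, but 6 were when the FPKM of both libraries were scaled to the same sum or centred on transcript length, and 11 when centred on GC content, so no direction is given for the complex.

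**Figure D2:**
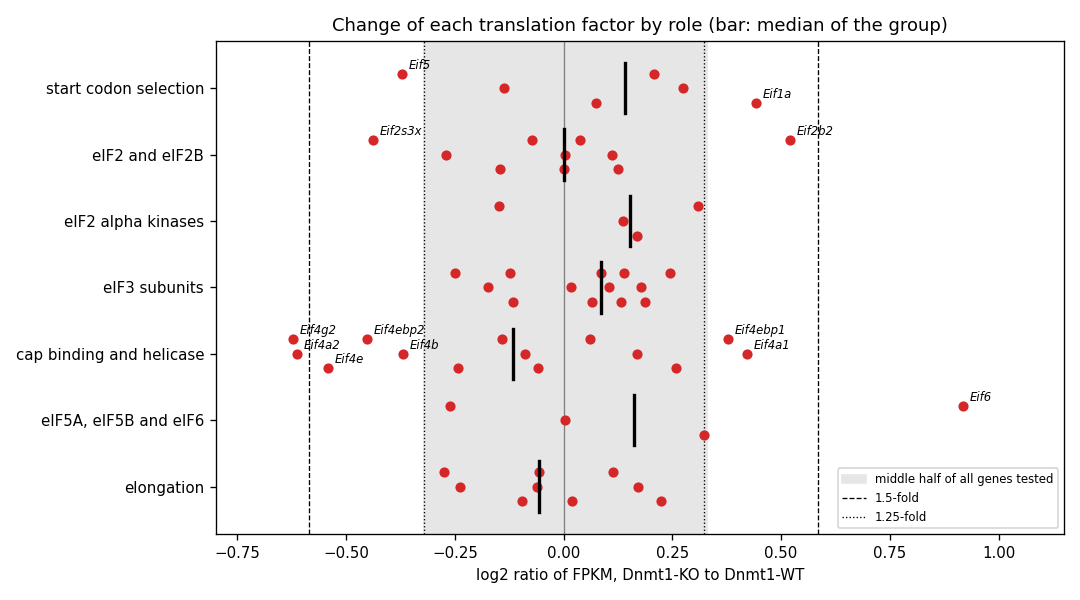
The log2 ratio of FPKM, *Dnmt1*-KO to *Dnmt1*-WT, of each of the 60 factors tested (red points), by role, with the median of each group as a black bar, the range from the lower to the upper quartile of all 13396 genes in grey, and lines at the smaller limit (dotted) and at 1.5-fold (dashed). The eIF3 and elongation genes all lie between the dotted lines, the cap-binding and helicase genes spread the widest to the left, and *Eif6* stands alone on the right at 0.92.

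Among the cap-binding and helicase factors the genes diverged. Of the 14 tested, 5 were higher in *Dnmt1*-KO and 9 lower, and this group held 5 of the 7 factors past the smaller limit on the lower side, where 24.9% of all genes were. Centring on GC content took *Eif4a2* (-0.26) and *Eif4e* (-0.19) back inside that limit, and centring on length did so for *Eif4ebp2* (-0.27) and *Eif4b* (-0.28). *Eif4a1* and *Eif4a2* encode closely related forms of eIF4A, the RNA helicase that unwinds the 5′ end of the mRNA. *Eif4a1* had 160.5 FPKM in *Dnmt1*-WT and 214.92 FPKM in *Dnmt1*-KO, while *Eif4a2* had 129.39 and 84.58 FPKM. The level of *Eif4a1* was 1.24 times that of *Eif4a2* in *Dnmt1*-WT and 2.54 times in *Dnmt1*-KO. Their sum hardly differed, at 289.89 and 299.50 FPKM. The difference between their log2 ratios, 1.03, was the largest among the 11 pairs of related factors compared when no centring was applied. Centred on GC content it was 0.78, and that of *Eif4ebp1* and *Eif4ebp2* was larger at 0.92. *Eif4a3*, the related helicase of the exon junction complex, had 46.23 and 51.97 FPKM.

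As the pair with the largest difference before any centring, it was examined at the level of sequence. *Eif4a1* lies at chr11:69666936-69672423 on the minus strand and *Eif4a2* at chr16:23107444-23114136 on the plus strand of GRCm38. Their coding sequences were identical at 954 of 1221 aligned bases, or 78.1%, and their transcripts shared no window of 50 bases. The longest run common to both coding sequences is 20 bases, in a coding exon of each, at chr11:69670251-69670270 and chr16:23109122-23109141, and is shown because it bounds how far a read within these coding sequences could fit both without a mismatch:
Eif4a1 and Eif4a2: tatgatgtgattgctcaagc

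Reads of *Eif4a1* could be confused more readily with other genes, as 28.4% of its 50-base windows occur elsewhere, most of them in the pseudogene *Eif4a-ps4* (24.2%). For *Eif4a2* the share is 10.6%, and on the opposite strand it overlaps *Rfc4*, which had 2.7 and 4.71 FPKM. *Cd68*, a macrophage gene that had 5.75 and 20.02 FPKM, lies 782 bases downstream of *Eif4a1* on the same strand. The part of these neighbours in the values was not tested.

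The promoters of the pair are printed because the *Dnmt1* knockout bears on CG dinucleotides, which are the sites that DNMT1 methylates and are given in capitals. Each sequence is the 250 bases before the RefSeq start of the gene in GRCm38, chr11:69672424-69672673 on the minus strand and chr16:23107218-23107467 on the plus strand, and methylation at these sites was not analysed here.
Eif4a1: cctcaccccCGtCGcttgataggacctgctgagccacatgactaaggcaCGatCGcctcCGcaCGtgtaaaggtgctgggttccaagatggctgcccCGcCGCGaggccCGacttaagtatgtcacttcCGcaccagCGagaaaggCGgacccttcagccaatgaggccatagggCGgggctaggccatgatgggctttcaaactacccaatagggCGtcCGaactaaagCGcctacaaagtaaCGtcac
Eif4a2: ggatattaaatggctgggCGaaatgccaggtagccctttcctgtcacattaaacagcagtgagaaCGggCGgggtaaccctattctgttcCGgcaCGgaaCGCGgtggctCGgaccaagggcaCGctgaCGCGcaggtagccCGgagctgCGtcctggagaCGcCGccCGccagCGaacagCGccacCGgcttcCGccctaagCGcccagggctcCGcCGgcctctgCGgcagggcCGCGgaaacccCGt

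The first holds 18 CG dinucleotides and the second 27. RefSeq windows of 300 bases, from 250 before to 50 after a start, were matched for 49 of the 61 factors, giving 64 windows since some genes have several starts. *Eif6*, *Eif4g2*, *Eif1a* and *Eif4ebp1* are among the factors without a window, so the counts below do not cover them. The median of the 64 windows was 24 CG dinucleotides, beside 20 for the 12888 windows of genes tested and 7 for all 32851 windows. The sequence CCGGAAG, a site letter pattern of ETS-family factors, was found on either strand in 20 of the 64 windows (31.2%), beside 16% of the windows of genes tested and 8.86% of all. CACGTG, the E-box known for MYC and its relatives, was found in 14 (21.9%), beside 9.66% and 7.15%. TATAAA was found in 4 (6.25%), beside 7.22% and 13.6%, the palindromic NRF1 pattern in 1 (1.56%), beside 1.92% and 0.971%, and the CArG box known from smooth muscle genes in 1 (1.56%), beside 1.31% and 1.63%. TGATGCAAT, a pattern bound by ATF4 with C/EBP proteins, was not among the letters of these windows, beside 0.124% and 0.192%. The CArG pattern can contain TATAAA, and the 1 window with a CArG box, that of *Eif2s1*, also holds TATAAA. A match is a description and not a binding site.

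*Eif4g2*, which encodes a relative of the scaffold eIF4G that does not bind eIF4E and serves cap-independent initiation, had 157.36 FPKM in *Dnmt1*-WT and 102.24 FPKM in *Dnmt1*-KO, a ratio of 0.65, the lowest of the factors tested when no centring is applied. Its log2 ratio of -0.62 was -0.41 after centring on GC content, where *Eif4ebp2* (-0.46) and *Eefsec* (-0.42) were lower. After centring on length it was -0.37, where *Eif4a2* (-0.63), *Eif4e* (-0.44), *Eif3e* (-0.42) and *Eif2s3x* (-0.41) were lower. The gene lies at chr7:111067750-111083030 on the minus strand. *Eif4g1*, the main scaffold, had 83.5 and 87.12 FPKM, and *Eif4g3* had 43.94 and 41.29 FPKM. The level of *Eif4g1* relative to *Eif4g2* was 0.531 in *Dnmt1*-WT and 0.852 in *Dnmt1*-KO.

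*Eif4e*, the cap-binding protein, had 28.61 FPKM in *Dnmt1*-WT and 19.65 FPKM in *Dnmt1*-KO, a ratio of 0.687. *Eif4e2*, a cap-binding relative known as a repressor, had 21.4 and 25.58 FPKM, so that the order of the pair changed between the libraries. *Eif4e3* had 13.84 and 12.54 FPKM. Of the 4E-BP genes, whose products sequester eIF4E, *Eif4ebp1* had 50.24 and 65.24 FPKM and *Eif4ebp2* 37.06 and 27.1 FPKM. The sum of the 3 4E-BP genes, 87.71 and 92.50 FPKM, was 3.07 times the level of *Eif4e* in *Dnmt1*-WT and 4.71 times in *Dnmt1*-KO. *Eif4enif1*, the nuclear transporter of eIF4E, had 20.2 and 17.06 FPKM. *Eif4b* and *Eif4h*, cofactors of the helicase, had 78.64 and 60.89 FPKM and 122.96 and 118.03 FPKM.

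**Figure D3:**
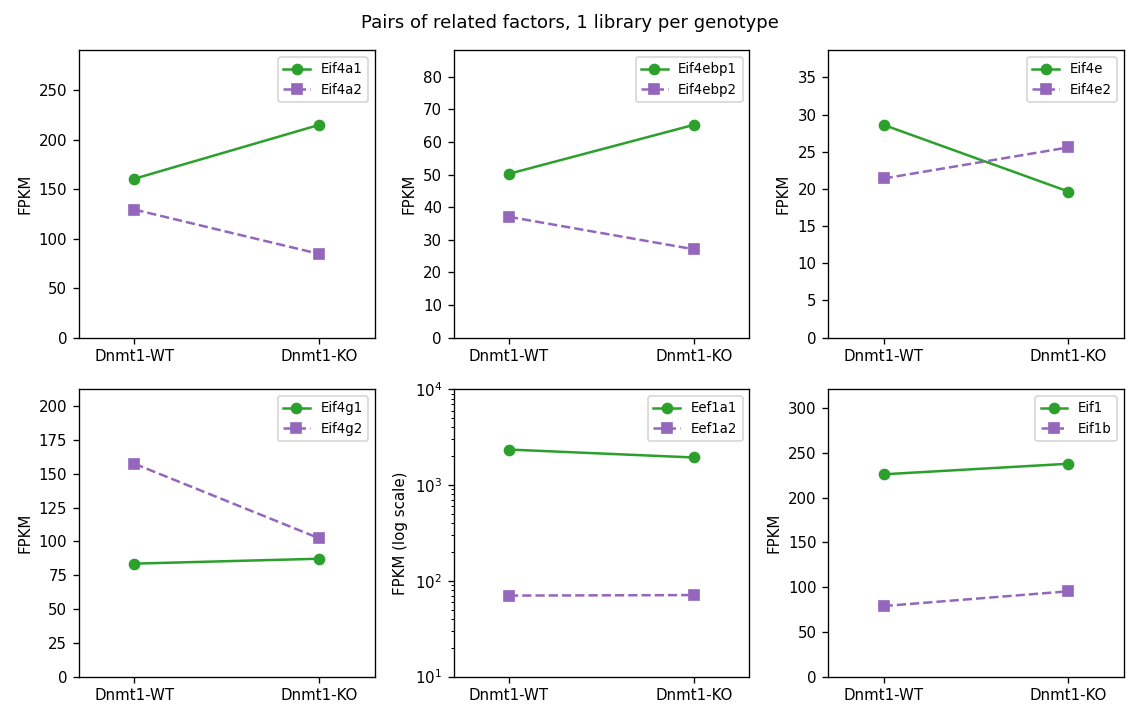
FPKM of 6 pairs of related factors in the *Dnmt1*-WT and *Dnmt1*-KO libraries, 1 library each, on linear axes from 0 except for the log axis of *Eef1a1* and *Eef1a2*. The lines of *Eif4a1* and *Eif4a2* and of *Eif4ebp1* and *Eif4ebp2* diverge, those of *Eif4e* and *Eif4e2* cross, and those of *Eif1* and *Eif1b* run nearly parallel.

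*Eif6* had the highest ratio of the 60 factors tested, except after centring on the GC content of the longest transcript, where *Eif1a* stood at 0.79 and *Eif6* at 0.74. The product of *Eif6* binds the large ribosomal subunit, serves in its assembly and keeps it from joining the small subunit too early. It had 82.67 FPKM in *Dnmt1*-WT and 156.34 FPKM in *Dnmt1*-KO, a ratio of 1.89. The gene lies at chr2:155819832-155826925 on the minus strand, and *Gm16098* is annotated on the opposite strand. *Eif5a*, whose product helps the ribosome past difficult peptide bonds and carries the modified amino acid hypusine, had 294.69 and 368.31 FPKM, a log2 ratio of 0.32 that lay just under the smaller limit. It passed the limit at 0.34 to 0.35 with the median or trimmed mean set to 0 or upper quartiles set equal, and was 0.15 with centring on length. For *Eif5a* 5 transcript variants were found in *Dnmt1*-WT and 8 in *Dnmt1*-KO. Its relative *Eif5a2* had 4.87 and 4.88 FPKM. *Eif5b*, the subunit joining factor, had 16.97 and 14.15 FPKM.

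Of the 6 genes grouped under start codon selection, which include the eIF1A domain gene *Eif1ad*, 4 were higher and 2 lower without rescaling. *Eif1*, the guardian of start codon stringency, had 226.12 FPKM in *Dnmt1*-WT and 237.92 FPKM in *Dnmt1*-KO, and its relative *Eif1b* had 78.81 and 95.32 FPKM. *Eif5*, which triggers GTP hydrolysis by eIF2 at the start codon, had 44.26 and 34.22 FPKM. The eIF1A gene *Eif1a* had 8.5 and 11.55 FPKM and *Eif1ax* 48.15 and 43.8 FPKM. Centred on GC content, the log2 ratio of *Eif1a* was 0.79, that of *Eif1ax* turned from -0.14 to 0.21 and that of *Eif5* went from -0.37 to -0.02. Centred on length, *Eif1ax* was at 0.05. With the median over all transcripts of a gene in place of the longest one, *Eif1ax* stayed lower, at -0.07 centred on GC content and -0.03 on length. *Eif1ad*, an eIF1A domain protein, had 10.92 and 12.62 FPKM.

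The alpha subunit gene *Eif2s1*, which carries the serine that stress kinases phosphorylate, had 15.79 FPKM in both libraries. *Eif2s2* had 36.69 and 33.16 FPKM and *Eif2s3x* 54.51 and 40.22 FPKM, and the sum of the 3 subunit genes went from 106.99 to 89.17 FPKM. *Eif2b2*, the beta subunit of eIF2B, had 18.55 and 26.6 FPKM, a ratio of 1.43. *Eif2b1* had 11.41 and 10.85 FPKM, *Eif2b3* 10.16 and 11.08, *Eif2b4* 16.78 and 17.23, and *Eif2b5*, the catalytic subunit, 16.32 and 17.64. The sum of the 5 eIF2B genes went from 73.22 to 83.40 FPKM, and most of that difference was *Eif2b2*. *Eif2a* and *Eif2d*, which can deliver tRNA without eIF2, had 17.66 and 14.63 FPKM and 13.17 and 13.2 FPKM.

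All 4 eIF2 alpha kinase genes stayed within the smaller limit without rescaling. *Eif2ak1*, the heme-regulated kinase, had 14.91 and 16.39 FPKM. *Eif2ak2*, the kinase PKR activated by double-stranded RNA, had 5.05 and 6.26 FPKM, a log2 ratio of 0.31 that passed the limit at 0.33 with the median set to 0, 0.34 with upper quartiles set equal, 0.40 centred on length and 0.53 centred on GC content. *Eif2ak3*, the kinase PERK of the endoplasmic reticulum, had 4.61 and 5.18 FPKM, and *Eif2ak4*, the amino acid sensor GCN2, had 3.56 and 3.21 FPKM. The integrated stress response is the set of genes known to respond to eIF2 alpha phosphorylation. Of the 25 tested, 16 were at least 1.5-fold higher and 0 lower, beside 15.1% and 11.0% of all genes, with a median log2 ratio of 0.74. The lower count was 1 with the FPKM sums set equal. *Atf4*, the transcription factor at the head of the response, had 84.57 and 102.33 FPKM, and *Ddit3* 20.29 and 24.09 FPKM. Its target *Asns*, asparagine synthetase, had 12.98 and 25.43 FPKM, *Trib3* 0.55 and 3.14 FPKM, and *Slc3a2*, an amino acid transporter subunit, 25.93 and 46.08 FPKM. *Nupr1* had 17.45 and 47.31 FPKM, *Atf5* 37.99 and 58.05, *Cebpb* 24.37 and 45.51, and *Phgdh* 16.53 and 25.51. *Ppp1r15a*, which encodes the GADD34 subunit that reverses eIF2 alpha phosphorylation, had 12.91 and 14.33 FPKM. Several of these genes are also used by leukocytes, adipocytes or dividing cells, whose markers were higher in *Dnmt1*-KO as given above, and their part was not tested.

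The counts of the other lists of genes that act with the factors stand beside 15.1% of all genes at least 1.5-fold higher and 11.0% lower. The list of mTORC1 and MNK signalling shares *Eef2k* with the translation factors and *Rps6* with the ribosomal proteins. Of the 17 genes of mTORC1 and MNK signalling to eIF4E, 0 were 1.5-fold higher and 1 lower, *Deptor*, an mTOR inhibitor, with 16.59 and 7.81 FPKM, and the median was -0.07. Of the 7 poly(A)-binding protein genes and their partners, 0 were higher and 2 lower, *Paip2* (110.94 and 72.4) and *Paip1* (11.68 and 7.14), with a median of -0.18. None of the 12 termination and rescue genes (median -0.09) and none of the 22 cytosolic tRNA synthetase genes (median 0.18) passed 1.5-fold. A list of 16 genes joins those for hypusine and diphthamide, which modify eIF5A and eEF2, with genes for polyamine synthesis and its control. Of the 16, 3 were higher, *Odc1* (27.62 and 49.68), *Srm* (21.59 and 37.64) and *Dph5* (4.41 and 10.63), and 1 was lower, *Amd1* (28.46 and 17.91), with a median of 0.06. Among these *Odc1*, *Srm* and *Amd1* are polyamine genes and *Dph5* is a diphthamide gene. Of the 10 mitochondrial translation factors 0 were higher and 2 lower, *Guf1* (7.73 and 4.20) and *Mtrf1l* (3.16 and 1.80). The median of the 10 was -0.29, between -0.39 and -0.21 in every setting. Of all 13396 genes tested, 6895 were below a ratio of 1. Below it were 8 of the 10 mitochondrial factors, 13 of the 17 signalling genes and 6 of the 7 poly(A)-binding genes and partners. So were 8 of the 12 termination and rescue genes, 7 of the 16 for hypusine, polyamine and diphthamide, and 6 of the 22 synthetase genes.

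The cytosolic ribosomal protein genes, which form the machine that the factors serve, were the other list with many members past 1.5-fold. Of 81 tested, 23 were higher and 0 lower, with a median log2 ratio of 0.46 that was 0.21 after centring on transcript length, and their sum went from 50212.17 to 71884.31 FPKM. The most abundant past 1.5-fold were *Rpl41* (2285.71 and 3572.51), *Rps21* (1641.79 and 2717.16), *Rps27* (1318.27 and 2520.94), *Rpl38* (1216.46 and 2558.12), *Rps29* (1159.21 and 1857.82) and *Rps26* (1054.08 and 1763.60). Many ribosomal protein genes have near-identical pseudogenes, and how reads that fit both were shared out is not given in the sources used here. Ribosome biogenesis factors, of which 2 of 24 were higher, *Nhp2* (16.07 and 24.53) and *Bop1* (10.65 and 18.56), had a median of 0.03. The translation factors made up 1.52% of the FPKM of all genes in *Dnmt1*-WT and 1.36% in *Dnmt1*-KO.

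**Figure D4:**
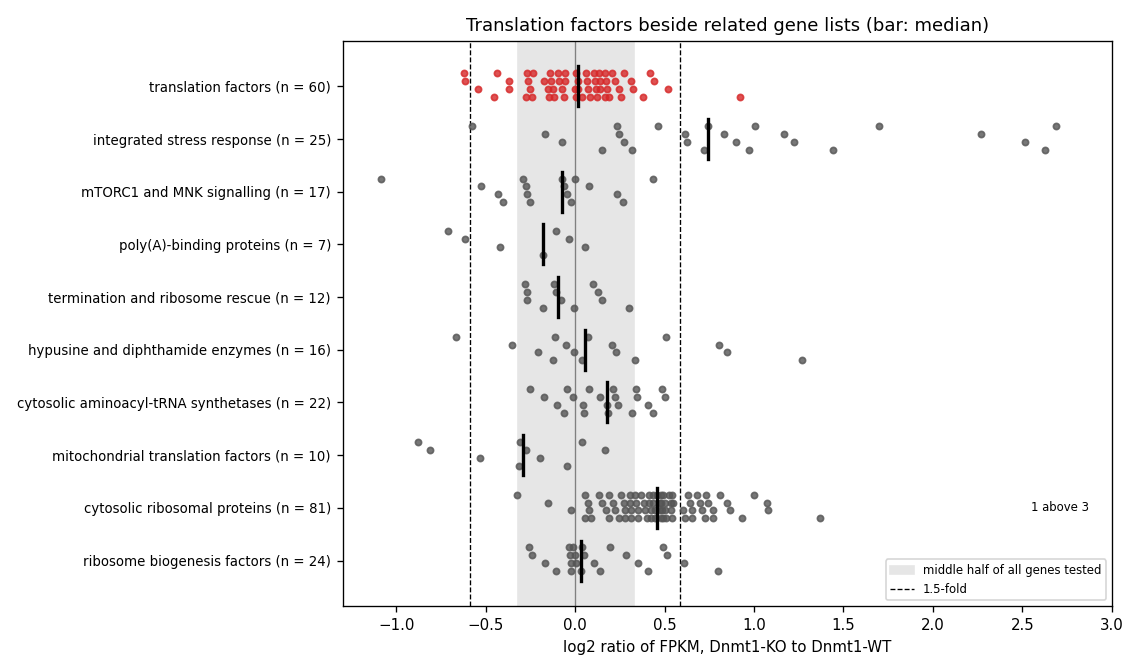
The log2 ratio of FPKM, *Dnmt1*-KO to *Dnmt1*-WT, of the tested genes of the translation factors (red) and of 9 related lists (grey points), with the median of each as a black bar, the quartile range of all genes in grey and lines at 1.5-fold. The ribosomal protein gene with the highest log2 ratio, 7.69, lies past the axis and is marked in writing only. The bars of the integrated stress response, at 0.74, and of the ribosomal proteins, at 0.46, stand to the right of the bar of the translation factors at 0.02.

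Transcript composition moved with the ratios over all genes. In 10 equal bins of the GC content of the longest protein-coding transcript, the median log2 ratio went from -0.35 in the bin with the lowest GC to 0.20 in the bin with the highest. *Eif4a2* (40.2% GC), *Eif4g2* (43.2%) and *Eif4e* (40.5%) lie on the low side, and *Eif6* (57.9%) on the high side. Other members go against the trend, as *Eif1a* (40% GC) had a log2 ratio of 0.44, *Eif2s1* (40.8%) and *Eif5a2* (38.8%) had 0.00, and *Eif4ebp2* (52.4%) had -0.45. After centring each gene on its bin, the log2 ratio of *Eif4a2* was -0.26 and that of *Eif4g2* -0.41, neither past 1.5-fold, that of *Eif4e* was -0.19, while that of *Eif6* was 0.74 and the difference of *Eif4a1* and *Eif4a2* was 0.78. The difference of *Eif4e* and *Eif4e2* went from -0.80 to -0.48 and that of *Eif4g1* and *Eif4g2* from 0.68 to 0.37. With GC content taken as the median over all transcripts of a gene, *Eif4a2* was at -0.31, *Eif4g2* at -0.40 and *Eif4e* at -0.32. The part of GC content in these values was not tested. The counts of transcript variants found were equal in both libraries for 47 of the 61 factors, higher in *Dnmt1*-KO for 8 and lower for 6. The equal share was 77% for the factors, 72.5% for all genes tested and 79.3% for those with a mean of 10 FPKM or more.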

How the data were processed

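RNA from jejunal tunica muscularis at P15 was sequenced from TruSeq RNA libraries, 1 per genotype. The authors deposited 1 table with the FPKM of each gene symbol and the number of transcript variants in each library. The submitters' processing notes name TopHat 1.4.1, Cufflinks 2.0.2 and the mm10 build (GRCm38), without giving their roles. Counting by strand is not given in the sources used here, so genes on opposite strands cannot be told apart. The authors' deposited column of ratios was not used. Of the value columns, 0 lacked a sample. Depth per gene is not given with the FPKM, and values near the lowest listed above 0, 0.03 FPKM, carry little precision.

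Ratios of FPKM, *Dnmt1*-KO over *Dnmt1*-WT, were taken without a pseudocount or rescaling, for genes above 0 in both libraries with a mean of 1 FPKM or more, and counted at 1.5-fold, with a ratio of 0.8 or its reciprocal as a smaller limit. No test was possible with 1 library per genotype. The members, lists and thresholds were chosen with earlier results of these data known. The division into roles, the promoter motifs and the pair printed as sequence were settled after the members' values had been seen. Members were named by role, with values given for all tested, and genes of related lists were named when past 1.5-fold, at most 6 a list by mean FPKM, with 5 stress response genes named whatever their values.

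Transcript length, GC content, gene positions and shared 50-base windows came from GENCODE M21, in which 98.9% of symbols had a transcript, and promoters from RefSeq (GRCm38.p6). For length and GC the median over all transcripts of a gene was tried first. It was replaced by the longest protein-coding transcript after the results under the first definition had been seen, because short fragments set many of the medians, and both are kept in the closing section. Alternatives covered 4 scalings, 2 pseudocounts, 2 filters, the fold and centring on length and GC. Biopython 1.88, matplotlib 3.10.9, pandas 2.3.3 and numpy 2.4.6 were run under Python 3.11.15.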

Additional observations from a re-analysis of the deposited data

How the results depend on the processing

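With 1 library per genotype, no setting carries an error, and the values below show only how far the choices move them. No paired analysis was possible because each genotype has 1 library. The number of factors at least 1.5-fold lower, 2 as reported, was 1 with upper quartiles set equal (*Eif4a2* at -0.58), 1 after centring on the length of the longest protein-coding transcript (*Eif4g2* at -0.37) and 0 after centring on its GC content (*Eif4a2* -0.26, *Eif4g2* -0.41). The number at least 1.5-fold higher, 1 as reported, was 2 after the same GC centring, which adds *Eif1a* at 0.79. The length and GC definition was changed after results were seen. Under the median over all transcripts, tried first, centring on length gave 1 higher and 2 lower, the reported counts, and centring on GC gave 2 higher and 0 lower (*Eif4a2* -0.31, *Eif4g2* -0.40, *Eif1a* 0.75). The standard deviation over the eIF3 genes, 0.16 as reported, was 0.07 after GC centring under the adopted definition and 0.15 under the first. At the smaller limit, a ratio of 0.8 or its reciprocal, 5 were higher and 7 lower, and at 2-fold 0 and 0. Without the members that share over 10% of their windows, an alternative chosen after seeing the data, 1 was lower. The median over the factors ran from -0.08 to 0.06, and that of the eIF3 genes from -0.02 to 0.12. Setting the FPKM sums equal shifts every log2 ratio down by 0.10, which left 24 factors above 1 and 36 below and put *Eif4e* past 1.5-fold at -0.64. With no filter on low values 3 factors were at least 1.5-fold lower, which adds *Eif4ebp3* at -1.36. *Eif6* was past 1.5-fold in every scaling, filter, pseudocount and centring, from 0.74 to 0.95. The stress response list had between 14 and 16 of 25 genes past 1.5-fold higher. It had 16 of 26 with no filter on low values and 9 of 16 at a mean of 10 FPKM or more. In this list 1 gene in place of 0 was past 1.5-fold lower in 3 settings. These were the FPKM sums set equal, no filter on low values and GC centring on the median over all transcripts. Of the 60 factors tested, 34 had the same sign in every setting run for them. Of 240 counts and medians under another setting, 229 stayed within a wide tolerance, 1.5 times for counts and 0.58 for log2 values, which still let the ribosomal protein median move to 0.21. Of 845 values of single genes and pairs, 831 stayed within 0.58 and on the same side of 1.5-fold, and 0 past 1.5-fold changed sign. Many of these values could hardly move. The filters leave the ratio of a gene as it is, and each scaling shifts all genes alike, by 0.10 at most. The difference of a pair does not change with scaling. These tallies are therefore no measure of stability, and the centring settings are the ones that move single values most. Under the median over all transcripts, GC centring put the difference of *Eif1a* and *Eif1ax* at 0.82, above that of *Eif4a1* and *Eif4a2* at 0.80. Leaving out *Eif2c* symbols gave no value, since no such symbol is in the table.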
